A study of Mus musculus with 12 samples.

Results

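Imprinted genes whose allele choice rests on DNA methylation laid down in the germ line were followed in single mouse morulae, the compacted embryos that precede the blastocyst. The list held 55 genes, taken from textbook knowledge of the methylated imprinted clusters: 26 expressed from the paternal allele, 28 from the maternal allele, and Gnas, a locus with transcripts of both kinds. Every array probe whose accession matched a member was read. Of the 55 genes, 51 had a probe (88 probes), and 35 had a probe bright enough to be tested, among 19038 features tested in all. These 35 were 17 paternally expressed genes, 17 maternally expressed genes and Gnas.

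The study compared cloned with fertilised embryos, and cloned embryos with and without knockdown of Xist, the RNA that silences an X chromosome. Each of 12 single-colour Agilent arrays held amplified RNA of 1 embryo of the strain (C57BL/6 x DBA/2) F1, cultured in KSOM for 72 h after activation. The IVF class held 4 untreated embryos from in vitro fertilisation, male embryos 1 and 3 and female embryos 2 and 4. The siCont and siXist classes held 4 male clones each, made from nuclei of Sertoli cells, the nurse cells of the testis, and injected at 6 to 7 h with control siRNA or with siRNA against Xist. No clone was left uninjected and no IVF embryo received siRNA, so cloning and injection cannot be told apart against IVF. All embryos were amplified in a pair of rounds from the RNA of a single morula, and the labels do not say whether clones shared a donor. If they did, p-values measure only the spread between these embryos.

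In most mammalian genes both parental copies are used. At an imprinted gene a methyl mark set in the egg or the sperm silences 1 copy, and this mark must pass through the loss of methylation that follows fertilisation. The protein Zfp57 binds a methylated short sequence inside such marks and recruits Trim28, which keeps them methylated. Clusters are named here by their best known gene. A clone receives both sets of marks with its somatic nucleus. The arrays read total transcript and do not tell the alleles apart, so a level says nothing of which copy was used. Each array holds a whole embryo, so fewer cells that use a gene and less RNA per cell cannot be told apart.

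The start sites of members that are described most closely are shown first, because several germline marks cover a promoter and carry the letters that Zfp57 reads, TGCCGC on either strand. Whether each of these start sites lies within a germline mark was not tested. Each is the 250 bases before a RefSeq start in GRCm38.p6, 5′ to 3′ on the gene's strand, with TGCCGC or its reverse complement in capitals. Mest, Plagl1 and Mcts2 are paternally expressed, and Meg3 and Cd81 maternally expressed.
Mest: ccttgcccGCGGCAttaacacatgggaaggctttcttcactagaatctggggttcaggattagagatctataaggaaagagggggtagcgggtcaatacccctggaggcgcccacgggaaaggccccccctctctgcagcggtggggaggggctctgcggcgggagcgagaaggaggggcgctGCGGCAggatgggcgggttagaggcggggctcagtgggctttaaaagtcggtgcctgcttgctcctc
Plagl1: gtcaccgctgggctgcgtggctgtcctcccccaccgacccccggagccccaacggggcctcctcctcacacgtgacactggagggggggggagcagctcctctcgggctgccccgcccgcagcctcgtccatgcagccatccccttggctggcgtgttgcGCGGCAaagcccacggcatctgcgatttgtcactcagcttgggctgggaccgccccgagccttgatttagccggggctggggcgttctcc
Mcts2: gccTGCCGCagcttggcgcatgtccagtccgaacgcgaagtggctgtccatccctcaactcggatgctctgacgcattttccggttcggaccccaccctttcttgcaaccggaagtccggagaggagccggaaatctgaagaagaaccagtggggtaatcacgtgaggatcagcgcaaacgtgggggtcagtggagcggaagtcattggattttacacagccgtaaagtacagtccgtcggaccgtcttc
Meg3: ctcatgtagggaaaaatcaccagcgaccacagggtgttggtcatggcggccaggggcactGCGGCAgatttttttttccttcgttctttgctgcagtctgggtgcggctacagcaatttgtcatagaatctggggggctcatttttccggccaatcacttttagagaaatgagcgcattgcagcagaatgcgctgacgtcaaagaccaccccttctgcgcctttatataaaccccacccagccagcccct
Cd81: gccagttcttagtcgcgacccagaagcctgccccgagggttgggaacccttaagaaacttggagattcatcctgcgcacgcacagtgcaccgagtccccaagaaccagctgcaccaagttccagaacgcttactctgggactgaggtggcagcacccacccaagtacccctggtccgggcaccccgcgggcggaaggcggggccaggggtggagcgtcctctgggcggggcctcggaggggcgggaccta
The windows lie on the plus strand at chr6:30737800-30738049 (Mest), chr10:13090582-13090831 (Plagl1), chr2:152686898-152687147 (Mcts2), chr12:109540746-109540995 (Meg3) and chr7:143052500-143052749 (Cd81). Where a gene had more than 1 listed start, the window with the most copies of the hexamer is shown, so these windows were chosen for it. The Mest window, from 1 of 3 listed starts, held the hexamer 2 times, beginning 242 and 67 bases before the start. The Meg3 window was from 1 of 2 listed starts. Another listed start of Mest and the other of Meg3 held the hexamer 0 times. Plagl1 held it 90 bases, Mcts2 247 bases and Meg3 190 bases before the start, and the Cd81 window held none. These windows had 14 (Mest), 19 (Plagl1), 20 (Mcts2), 10 (Meg3) and 16 (Cd81) CpG dinucleotides, the sites of DNA methylation, against a median of 6 over 32851 windows of all genes. RefSeq windows matched 44 of the 55 members. Of these, 11 (25%) held TGCCGC, against 9.84% of 27025 genes. By allele TGCCGC was held by 5 of 21 paternally expressed genes (23.8%) and 6 of 22 maternally expressed genes (27.3%). TGCCGC was the only motif searched, and a match of letters is a description and not a binding site. Other members with it were Zdbf2, 1 of whose windows held it 3 times, Nap1l5, Zim1, Copg2, Calcr, Osbpl5 and Slc22a2.

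Levels are log2 signal relative to the 75th percentile of the array, so that a unit is a 2-fold step, and they are compared between embryos and never between genes. Differences carry the standard error of a limma fit to all 12 arrays, and a gene counts as called where its p, adjusted over all 19038 features, is under 0.05. The 75th percentile of the signal lay between 507 and 1133, and 50.8% to 61.5% of probes were well above background on an array, with siCont embryo 3 lowest. The 3 classes were hybridised on separate slides that were scanned separately, which cannot be told apart from the class. Only female against male IVF embryos is a comparison within 1 slide. Xist, the target of the siRNA, lay at 5.65, 4.74, 4.94 and 4.56 in the siCont embryos and at 1.72, 1.36, 2.18 and 2.45 in the siXist embryos, which did not overlap. In IVF embryos Xist was at 5.17 and 5.24 in the female embryos and at -4.92 and -7.04 in the male embryos.

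Few imprinted genes stood out against IVF embryos, and none between the clone classes. In siCont against IVF embryos 0 of 35 members were called, beside 0.415% of all features. In siXist against IVF embryos 1 of 35 was called, Impact, beside 0.578%. With all 8 clones against IVF 2 of 35 were called, Impact and Cd81, both higher in clones, beside 0.909%. Between siXist and siCont embryos 0 were called, beside 0.0105%, and between female and male IVF embryos 0, beside 0.0158%. Against the 2 male IVF embryos alone 0 members were called in siCont embryos, beside 0.0945%, and 0 in siXist embryos, beside 0.11%.

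At an unadjusted p under 0.05 of the same limma fit, 6 members were higher and 3 lower in siCont than in IVF embryos, where 6.84% and 6.73% of all features were. In siXist against IVF embryos the counts were 4 higher and 2 lower, beside 5.05% and 8.84%. Between siXist and siCont embryos they were 1 higher and 4 lower, beside 4.39% and 9.5%. Between female and male IVF embryos 0 members were higher and 1 lower in females, Impact, beside 0.777% and 0.751%. Against the male IVF embryos alone 4 members were higher and 0 lower in siCont embryos, beside 4.99% and 4.31%, and 4 higher and 0 lower in siXist embryos, beside 3.28% and 5.06%. Embryos of both classes did not overlap for 9 of 35 members in siCont against IVF embryos, beside 10.3% of all features, for 11 in siXist against IVF embryos, beside 13.1%, and for 2 between the clone classes, beside 8.03%. Those 11 include Magel2, which was bright enough to be tested through its IVF embryos alone. The 2 between the clone classes were Plagl1, with values from 2 siXist embryos, and Rasgrf1, with 1 of 4 siXist arrays well above background. The clone classes share their IVF embryos, so the first pair of comparisons is not independent.

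**Figure D1:**
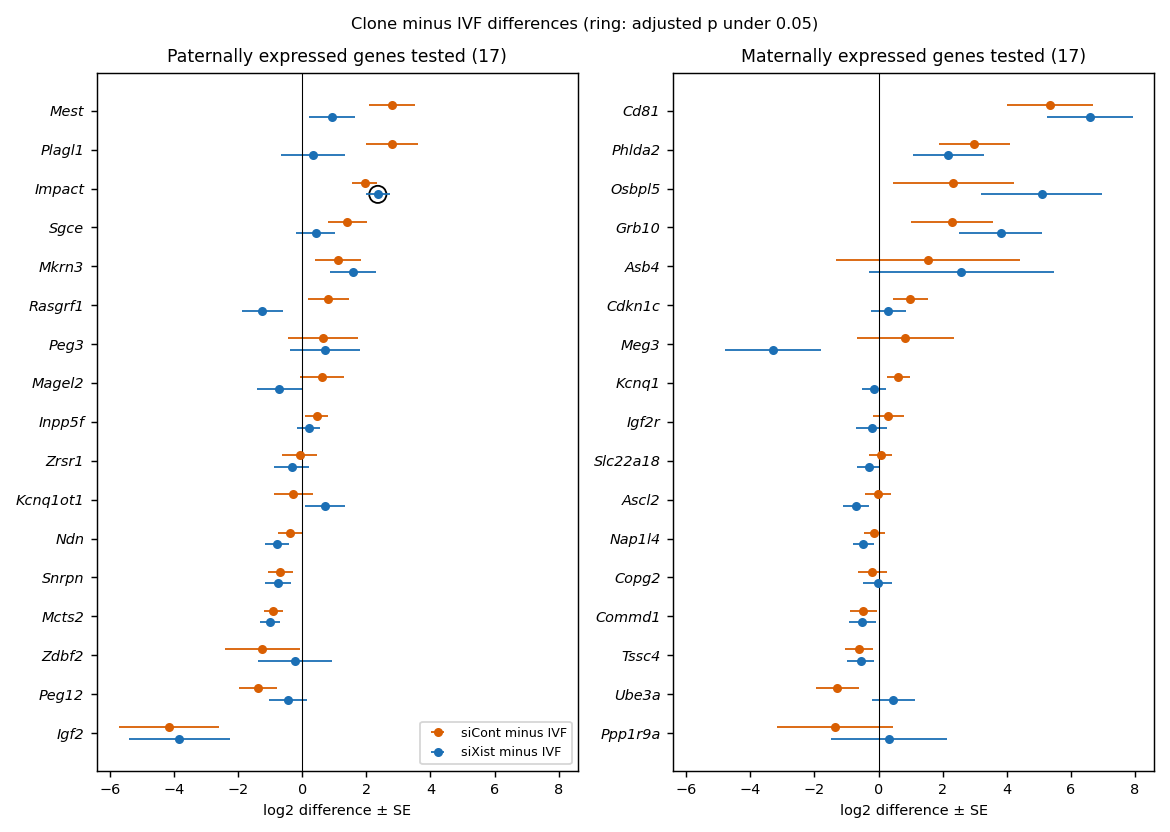
Differences of the 17 paternally and 17 maternally expressed genes tested, siCont minus IVF (orange) and siXist minus IVF (blue), in log2 units with the standard error of the limma fit. Impact in siXist embryos, at 2.36, carries the only ring for an adjusted p under 0.05, and Cd81 lies farthest to the right, at 5.34 and 6.58.

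Impact, which encodes a regulator of the amino acid stress kinase Gcn2 and is expressed from the paternal allele in the mouse, was the member with the smallest p in either clone class against IVF. Its level was 1.98, 0.72, 1.84 and 0.31 in IVF embryos 1 to 4. The siCont embryos had 2.59, 3.63, 3.88 and 2.57, and the siXist embryos 3.58, 4.05, 3.29 and 3.39. Every clone lay above every IVF embryo, and the clone classes overlapped. The siXist minus IVF difference was 2.36 ± 0.38, a 5.15-fold rise (adjusted p = 0.0287). In siCont embryos the difference was 1.95 ± 0.38, 3.87-fold, which missed the threshold (adjusted p = 0.0691). Over all clones it was 2.16 ± 0.33, 4.47-fold (adjusted p = 0.0177).

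Within IVF the pair of female embryos held the lower Impact values, and female minus male was -1.39 (adjusted p = 1). All clones were male, and the male IVF embryos held the higher Impact values. Against them alone the differences were smaller, 1.26 in siCont embryos (adjusted p = 0.462) and 1.67 in siXist embryos (adjusted p = 0.337). The siXist call did not pass without any 1 of the IVF embryos 1, 2, 3 and 4 (adjusted p = 0.104, 0.0594, 0.0981 and 0.0822). It also did not pass without siXist embryo 1, 2, 3 or 4 (adjusted p = 0.0554, 0.0822, 0.0676 and 0.0597). The call over all clones was lost without IVF embryo 1, 3 or 4 (adjusted p = 0.0795, 0.0894 and 0.0718). With any 1 array left out the siXist minus IVF difference lay between 2.21 and 2.47. The 5 features most like Impact over the 12 arrays were Jun, Rala, Fam162a, Atxn10 and Lin7b, with Pearson r of 0.932, 0.928, 0.918, 0.917 and 0.915, as a description, since these arrays share the split between classes.

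**Figure D2:**
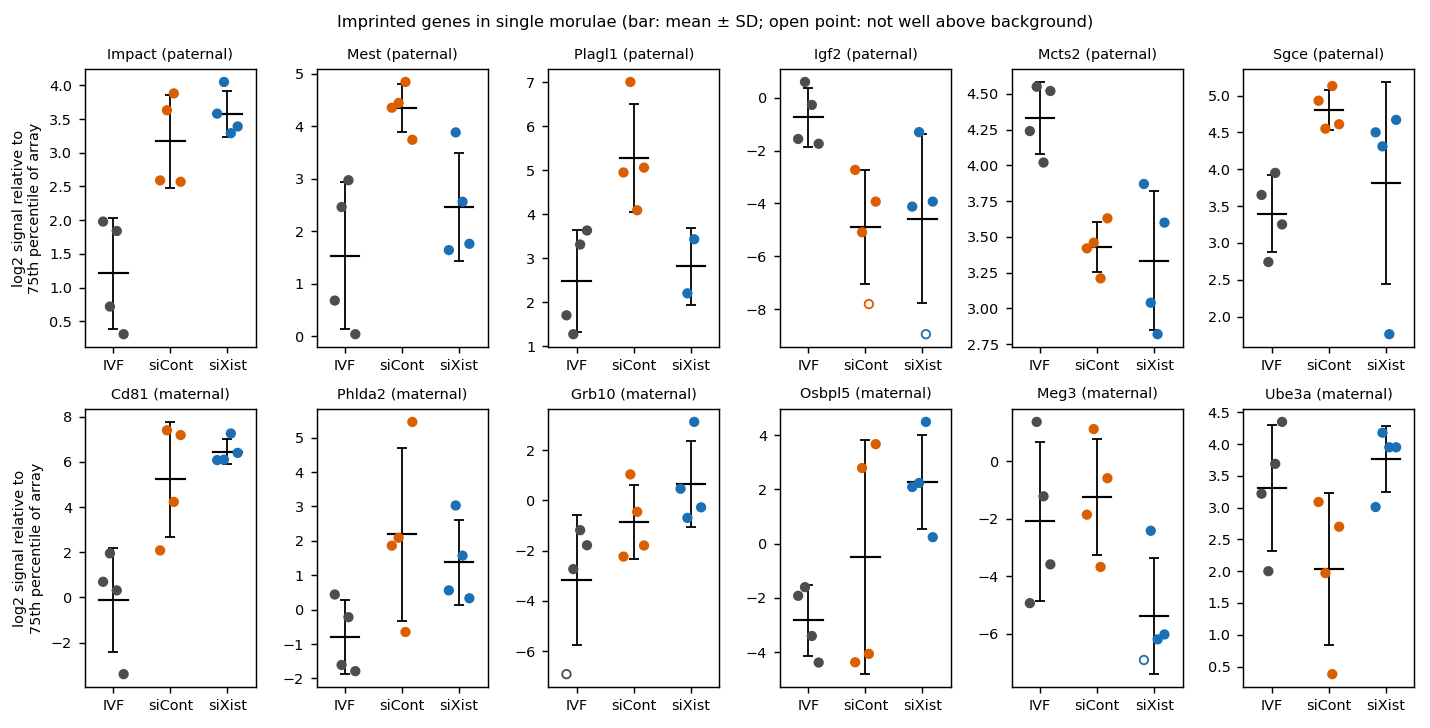
Log2 signal relative to the 75th percentile of the array for 12 imprinted genes in each of the 4 IVF (grey), 4 siCont (orange) and 4 siXist (blue) embryos, with the class mean and SD; open points were not well above background, and each panel has its own axis. Impact and Cd81 lie higher in all 8 clones than in any IVF embryo, Mest and Plagl1 in all 4 siCont embryos, and Mcts2 lies lower in all 8 clones.

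Mest, which encodes a hydrolase-like protein of mesoderm and heads its own cluster, was at 0.68, 2.46, 2.97 and 0.04 in IVF embryos 1 to 4. Its siCont values were 4.35, 4.44, 4.84 and 3.74, and its siXist values 1.64, 3.88, 2.56 and 1.76. All siCont embryos lay above all IVF embryos, while the siXist embryos overlapped both classes. The siCont minus IVF difference, 2.2 without IVF embryo 4 and 3.41 without IVF embryo 2, was 2.81 ± 0.72 (6.99-fold, adjusted p = 0.144; exact two-sided permutation p = 0.0286, the smallest that 4 against 4 embryos allow). In siXist minus IVF it was 0.92 ± 0.72 (adjusted p = 0.579), and siXist minus siCont was -1.88 ± 0.72 (adjusted p = 0.318, exact permutation p = 0.0571). Its neighbour Copg2, a coat protein gene expressed from the maternal allele, differed by -0.19 in siCont and -0.02 in siXist embryos from IVF.

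Plagl1, a zinc finger factor that restrains growth, had IVF values of 1.70, 1.27, 3.31 and 3.63. The siCont embryos were at 4.95, 7.01, 4.09 and 5.06, and siXist embryos 2 and 3 at 2.20 and 3.43. Spots of siXist embryos 1 and 4 had been marked as outliers by the scanner software and were left out, so the siXist mean rests on 2 embryos. All 4 siCont embryos lay above all IVF embryos. The siCont minus IVF difference, 2.21 without IVF embryo 2 and 3.39 without IVF embryo 4, was 2.80 ± 0.81 (6.97-fold, adjusted p = 0.217), and siXist minus siCont was -2.46 ± 0.99 (adjusted p = 0.339), or -3.08 and -1.84 without siXist embryo 3 or 2. A second kept probe of Plagl1 gave 1.65 for siCont minus IVF and -2.16 for siXist minus siCont, but -0.51 for siXist minus IVF where the first gave 0.34.

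Sgce, the sarcoglycan epsilon gene of the Peg10 cluster, was at 3.65, 2.74, 3.95 and 3.25 in IVF embryos and at 4.93, 4.55, 5.13 and 4.61 in siCont embryos, which did not overlap. The siXist values were 4.50, 4.31, 1.76 and 4.67, of which embryo 3 lay below every IVF embryo and the other three above. The siCont minus IVF difference was 1.41 ± 0.60 (adjusted p = 0.339), and a second probe gave 1.44. The maternally expressed genes of that cluster, Ppp1r9a and Asb4, differed by -1.35 ± 1.81 and 1.54 ± 2.88 in siCont embryos. Their standard errors exceed these differences, with single embryos near background.

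Igf2, the fetal growth factor of the H19 cluster, stood lowest among the differences of members. It was at -1.56, 0.60, -0.27 and -1.74 in IVF embryos. Its siCont values were -2.73, -5.09, -7.81 and -3.93, all under the lowest IVF embryo, with 3 of 4 arrays well above background. Its siXist values were -4.12, -1.30, -8.95 and -3.93, again 3 of 4 well above background, and siXist embryo 2 lay within the IVF range. The differences from IVF were -4.15 ± 1.57 in siCont (adjusted p = 0.294, exact permutation p = 0.0286) and -3.83 ± 1.57 in siXist embryos (adjusted p = 0.317). Leaving out 1 array gave -4.87 to -3.17 in siCont and -4.92 to -2.37 in siXist embryos, the smallest without embryo 3 of the clone class. No probe of H19, the maternally expressed RNA of the same cluster, was matched here.

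Mcts2, a retrogene inside H13 on chromosome 2, was lower in all clones by a small amount. It was at 4.24, 4.55, 4.02 and 4.52 in IVF embryos, 3.42, 3.46, 3.21 and 3.63 in siCont embryos, and 3.87, 3.04, 2.82 and 3.60 in siXist embryos. The values within a class were close, and every clone lay under every IVF embryo. The differences were -0.90 ± 0.30 and -1.0 ± 0.30 (adjusted p = 0.258 and 0.2), and -0.95 ± 0.26 over all clones (adjusted p = 0.154). Mcts2 is a near copy of its parent gene Mcts1, and its probe may read both, so its value is uncertain.

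Members of the Snrpn-Ube3a cluster, which holds a paternally expressed splicing protein gene, paternally expressed genes of neurons and a maternally expressed ubiquitin ligase gene, did not share a direction. Of 6 members tested, 2 were higher and 4 lower in siCont than in IVF embryos, and the same counts held in siXist embryos. Snrpn, the splicing protein gene, was at 1.88, 1.34, 1.08 and 1.26 in IVF embryos and at 1.14, 0.32, 1.2 and 0.19 in siCont embryos. Its siXist embryos 1 to 3 had 0.80, 0.13 and 0.96, under every IVF value, with embryo 4 left out as an outlier spot. A second kept probe had that embryo at 1.02, above IVF embryos 2 to 4 at 0.71, 0.60 and 0.81, and gave differences of -0.47 and -0.40. With the first probe the differences from IVF were -0.68 ± 0.38 and -0.76 ± 0.41 (adjusted p = 0.469 and 0.441).

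Ndn, a growth-restraining gene of neurons, was at -3.44, -3.01, -4.33 and -4.32 in IVF embryos, -3.84, -4.66, -3.74 and -4.36 in siCont embryos and -4.51, -4.49, -4.41 and -4.83 in siXist embryos. The siXist embryos lay just under the IVF embryos, by -0.78 ± 0.38 in the mean (adjusted p = 0.396). Mkrn3, a ring finger gene known for its part in the timing of puberty, was at -3.93, -2.11, -3.09 and -2.75 in IVF embryos. Its siCont values were -0.26, -1.27, -4.22 and -1.67, and its siXist values -1.41, -1.35, -1.55 and -1.26. The siXist embryos were alike and all above IVF, by 1.58 ± 0.71 (adjusted p = 0.363), whereas siCont embryo 3 was the lowest of all 12.

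Peg12, a paternally expressed gene of the same cluster, was tight in IVF embryos at -2.15, -2.25, -2.35 and -2.09. Its siCont embryos spread over -3.38, -2.04, -3.82 and -5.14, and its siXist embryos were at -3.45, -2.15, -2.25 and -2.79. The differences were -1.38 ± 0.59 in siCont (adjusted p = 0.345) and -0.45 ± 0.59 in siXist embryos (adjusted p = 0.753). Ube3a, the maternally expressed ubiquitin ligase gene whose loss causes Angelman syndrome, was at 3.22, 2.00, 3.69 and 4.35 in IVF embryos, 3.09, 1.97, 0.38 and 2.70 in siCont embryos and 3.01, 4.18, 3.95 and 3.95 in siXist embryos. Its siXist minus siCont difference of 1.74 ± 0.67 had the smallest p of the members higher in siXist embryos (adjusted p = 0.319, exact permutation p = 0.0571). A second Ube3a probe did not follow and gave -0.52.

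No other paternally expressed gene that heads a cluster was called in any comparison. Peg3, a zinc finger gene of maternal care and growth, was at -3.13, -2.80, -4.07 and -0.74 in IVF embryos, -0.71, 0.46, -5.19 and -2.72 in siCont embryos and -2.25, -0.90, -2.61 and -2.14 in siXist embryos. The classes overlapped, siCont embryos reaching above and below the IVF range, with differences of 0.64 ± 1.09 and 0.71 ± 1.09. Zrsr1, a splicing factor retrogene inside Commd1, was at 1.34, 1.70 and 0.71 in IVF embryos 1 to 3, with embryo 4 left out as an outlier spot, at 1.74, 0.62, 1.76 and 1.02 in siCont embryos and at 1.13, 1.18, -0.12 and 1.92 in siXist embryos. Its plain class means were 1.25, 1.29 and 1.03. In the fit, where the 1 female IVF value weighs as much as both male ones, its differences from IVF were -0.08 ± 0.55 and -0.33 ± 0.55, smaller than their standard errors. Its host Commd1 differed by -0.47 ± 0.43 and -0.50 ± 0.43 (adjusted p = 0.667 and 0.619).

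Kcnq1ot1, the long RNA that silences the Kcnq1 cluster in cis, was at 1.51, 0.34, 1.11 and 1.93 in IVF embryos, 0.91, 2.05, -0.55 and 1.39 in siCont embryos and 2.05, 2.53, 2.35 and 0.84 in siXist embryos. The classes overlapped, and its 3 kept probes gave siXist minus siCont differences from -0.14 to 3.55, so they disagreed in sign. Zdbf2 was at -2.98, -5.86, -4.25 and -7.95 in IVF embryos, with 3 of 4 arrays well above background, and at -6.52, -6.53, -6.23 and -6.69 in siCont embryos, none of them well above background. The siXist embryos had -6.08, -7.61, -1.46 and -6.75, with 2 of 4 well above background. The classes overlapped, and since Zdbf2 passed the filter on dim probes through its IVF embryos alone, no fold is given.

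Rasgrf1, a Ras exchange factor marked in sperm, was at -4.75, -6.04, -5.89 and -4.34 in IVF embryos, -3.0, -4.86, -4.01 and -5.92 in siCont embryos and -6.14, -6.73, -6.99 and -6.17 in siXist embryos. The siXist embryos lay under every embryo of both other classes, with 1 of 4 arrays well above background. In both other classes 3 of 4 arrays were well above background. As measured, siXist minus siCont was -2.06 ± 0.64 (adjusted p = 0.297), and its size is poorly set, since most siXist signals were not well above background.

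The Kcnq1 cluster of chromosome 7, whose maternally expressed genes include a cell cycle inhibitor and several genes imprinted mainly in placenta, held the largest differences. Of its 10 tested members 6 were higher and 4 lower in siCont than in IVF embryos, and 5 and 5 in siXist embryos. Cd81, a tetraspanin gene, was at 0.69, 1.95, 0.31 and -3.40 in IVF embryos. The siCont embryos had 2.08, 7.40, 4.23 and 7.19, and the siXist embryos 6.08, 6.10, 7.26 and 6.4. All clones lay above all IVF embryos, siCont embryo 1 only just. IVF embryo 4 lay far under the other three.

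Over all clones Cd81 rose by 5.96 ± 1.16 (62.2-fold, adjusted p = 0.0483). Taken by class the differences from IVF were 5.34 ± 1.34 in siCont (adjusted p = 0.134) and 6.58 ± 1.34 in siXist embryos (adjusted p = 0.0703), which both missed the threshold. The call over all clones passed with IVF embryo 2 or siCont embryo 1 left out (adjusted p = 0.0233 and 0.0222) and was lost without any other. Without IVF embryo 1, 3 or 4 the adjusted p was 0.176, 0.188 and 0.139. Leaving out siCont embryo 2, 3 or 4 gave 0.0804, 0.0616 and 0.078, and leaving out siXist embryo 1, 2, 3 or 4 gave 0.0777, 0.0801, 0.0906 and 0.0764. The difference was 4.62 without IVF embryo 4 and 7.3 without IVF embryo 2. Cd81 is expressed widely, and its value comes from 1 probe.

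Phlda2, a gene that restrains placental growth, was at 0.44, -1.61, -0.22 and -1.79 in IVF embryos. Its siCont values were 1.86, 2.09, -0.65 and 5.46, and its siXist values 0.56, 3.03, 1.57 and 0.33. Only siCont embryo 3 and siXist embryo 4 fell within the IVF range. The differences were 2.99 ± 1.11 in siCont (7.92-fold, adjusted p = 0.29) and 2.17 ± 1.11 in siXist embryos (4.50-fold, adjusted p = 0.414), and a second probe gave 3.06 and 2.20. The siCont difference was 1.9 without siCont embryo 4 and 3.93 without siCont embryo 3.

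Osbpl5, an oxysterol-binding protein gene, separated into low and high embryos. It was at -1.92, -1.60, -3.40 and -4.38 in IVF embryos and at 2.09, 2.24, 4.49 and 0.24 in siXist embryos, which did not overlap. Of the siCont embryos, 2 and 4 were high at 2.79 and 3.67, and 1 and 3 low at -4.37 and -4.06. The siXist minus IVF difference was 5.09 ± 1.88 (34.1-fold, adjusted p = 0.273), against 2.33 ± 1.88 for siCont minus IVF (adjusted p = 0.621). The siXist difference ran from 4.35 without siXist embryo 3 to 5.79 without IVF embryo 2.

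Cdkn1c, the cell cycle inhibitor of this cluster, was at -0.31, 0.16, -0.86 and -0.69 in IVF embryos, 1.58, -0.34, 0.31 and 0.71 in siCont embryos and -0.43, 1.1, -1.06 and -0.06 in siXist embryos. Its differences were 0.99 ± 0.54 and 0.31 ± 0.54 (adjusted p = 0.457 and 0.815). Kcnq1, a potassium channel gene, lay between -4.50 and -4.43 in IVF embryos and at -3.53, -4.08, -3.55 and -4.22 in siCont embryos, which did not overlap, and at -3.92, -4.81, -5.36 and -4.35 in siXist embryos. Its siXist minus siCont difference was -0.76 ± 0.36 (adjusted p = 0.374), and 0.37 in the authors' deposited table. Nap1l4, a histone chaperone gene, hardly varied, at 6.78, 6.96, 6.81 and 7.05 in IVF, 7.01, 6.38, 7.15 and 6.53 in siCont and 7.02, 6.26, 5.87 and 6.55 in siXist embryos (differences -0.13 ± 0.33 and -0.47 ± 0.33). Tssc4, Ascl2 and Slc22a18 differed from IVF by between -0.71 and 0.07 in either clone class, though a second probe of Slc22a18 gave 2.30 and 2.02.

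Among maternally expressed genes elsewhere, Grb10, an adaptor that restrains growth factor signalling, was at -6.92, -2.74, -1.19 and -1.79 in IVF embryos, where embryo 1 was not well above background. The siCont values were -2.24, 1.03, -0.46 and -1.80, and the siXist values 0.46, -0.70, 3.12 and -0.28. Every siXist embryo lay above every IVF embryo. The differences were 2.29 ± 1.29 in siCont (adjusted p = 0.466) and 3.81 ± 1.29 in siXist embryos (14.0-fold, adjusted p = 0.236, exact permutation p = 0.0286). The siXist difference was 2.38 without IVF embryo 1, 5.24 without IVF embryo 3 and 2.99 without siXist embryo 3. Igf2r, the receptor that clears Igf2, was at 6.55, 5.66, 5.92 and 6.85 in IVF, 6.65, 6.18, 7.24 and 6.08 in siCont and 6.81, 5.94, 4.95 and 6.43 in siXist embryos, and its differences of 0.30 ± 0.48 and -0.21 ± 0.48 lay within their standard errors.

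Meg3, the long RNA expressed from the maternal copy of the Dlk1-Dio3 cluster, varied widely. It was at -4.94, 1.37, -1.22 and -3.59 in IVF embryos, -1.86, 1.12, -3.68 and -0.59 in siCont embryos and -6.92, -2.42, -6.20 and -6.03 in siXist embryos. Of the siXist embryos 3 lay under every other embryo, and embryo 2 was within the range of the rest. As measured, the siXist minus siCont difference was -4.14 ± 1.5 (17.6-fold, adjusted p = 0.312, exact permutation p = 0.0571), and a second kept probe gave -4.32. In siXist embryos 3 of 4 arrays were well above background with the first probe and 2 of 4 with the second. The size of the difference is thus poorly set. With the first probe it was -3.35 without siCont embryo 2, -4.95 without siCont embryo 3 and -5.13 without siXist embryo 2. Against IVF the differences were 0.84 ± 1.5 in siCont and -3.30 ± 1.5 in siXist embryos (adjusted p = 0.836 and 0.365). Dlk1, Dio3 and Rian of the same cluster were not bright enough to test, and no probe of Rtl1 or Mirg was matched.

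Gnas, which encodes the stimulatory G protein subunit and has transcripts from either allele, was at -2.39, -2.96, -3.19 and -2.69 in IVF embryos, -2.90, -2.20, -1.93 and -2.43 in siCont embryos and -2.48, -2.30, -1.88 and -2.39 in siXist embryos. Its differences were 0.44 ± 0.32 and 0.54 ± 0.32 (adjusted p = 0.581 and 0.481). The remaining tested members, Magel2, Inpp5f, Ascl2, Tssc4, Slc22a18, Ppp1r9a, Asb4, Copg2 and Commd1, were not called in any comparison.

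**Figure D3:**
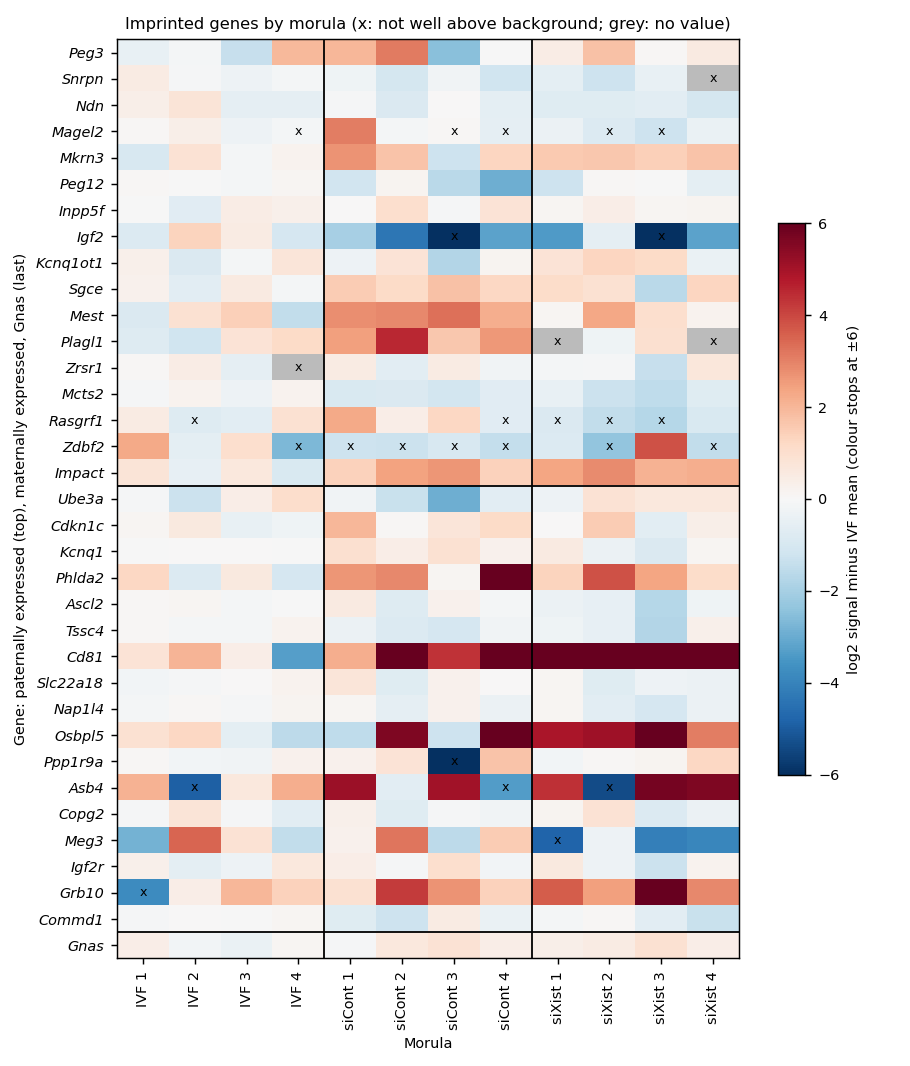
Log2 signal minus the IVF mean for the 35 imprinted genes tested (rows) in the 12 morulae (columns); red is higher and blue lower than the IVF mean, colours stop at ±6, a cross marks a signal not well above background and grey a missing value, also crossed. The rows of Impact and Cd81 are red in all 8 clones, while the rows of Nap1l4, Igf2r and Copg2 stay pale.

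Paternally and maternally expressed genes were then set side by side, without a test, since the members were chosen as a list. In siCont against IVF embryos 9 of 17 paternally expressed genes were higher, with a median difference of 0.45, and 10 of 17 maternally expressed genes, with a median of 0.30, while 48.1% of all features were higher and their median was -0.04. In siXist against IVF embryos 8 of 17 paternally and 8 of 17 maternally expressed genes were higher, with medians of -0.22 and -0.02 beside 38.3% and -0.23 for all features. Between siXist and siCont embryos 7 of 17 and 8 of 17 were higher, with medians of -0.10 and -0.02 beside 39.8% and -0.21. Single differences in siCont minus IVF ran from -4.15 to 2.81 for paternally and from -1.35 to 5.34 for maternally expressed genes.

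The median of the paternally expressed genes moved with single embryos, from -0.19 to 0.62 in siCont minus IVF as 1 array was left out. With the mean of a gene's probes in place of the brightest it was -0.05, and the maternal median 0.62, which turns the order of the lists. Relative to all features the paternal and maternal medians of siCont minus IVF were 0.49 and 0.33 as reported, 0.40 and 0.14 with normexp, and 0 and 0.67 with the mean of probes. Within an embryo the median level of the 17 paternally expressed genes ran from -0.35 to 0.71 in IVF, -0.55 to 0.91 in siCont and -1.26 to 0.13 in siXist embryos. That of the 17 maternally expressed genes ran from -1.18 to 0.60 in IVF, 0.31 to 2.46 in siCont and 1.03 to 2.12 in siXist embryos. The siXist embryos thus lay above all IVF embryos in the maternal list's median, while siCont embryo 3 lay within the IVF range. This median of levels differs from the median of the 17 gene differences, which was -0.02 in siXist minus IVF. Medians of all features lay between -1.04 and -0.66. In the authors' deposited table, which differs by a constant per array that moves every gene alike, the siCont minus IVF medians were -0.65 for paternally and -0.80 for maternally expressed genes, beside -1.13 for all features.

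**Figure D4:**
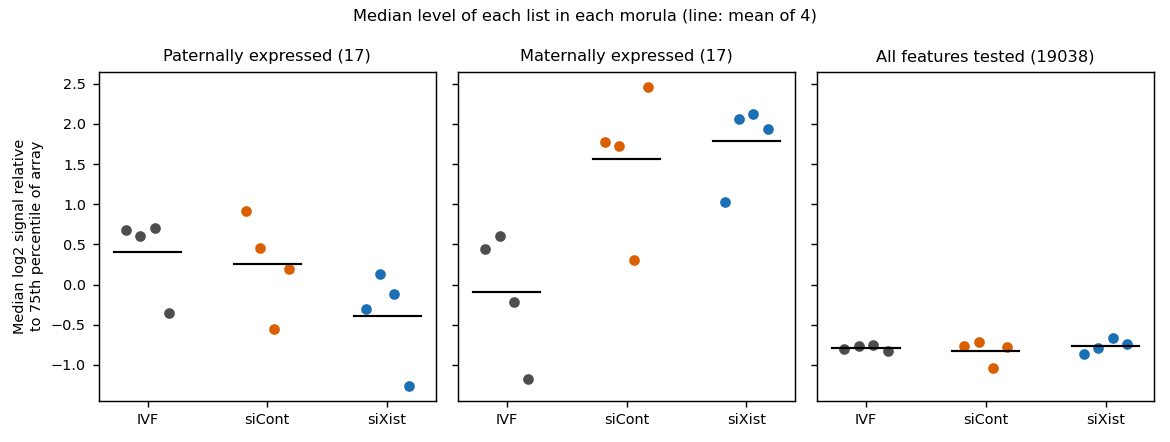
Median log2 signal relative to the 75th percentile of the array over the 17 paternally expressed genes, the 17 maternally expressed genes and all features tested, for each of the 12 embryos, with lines at class means. The paternal medians overlap between classes, and the 4 siXist embryos (1.03 to 2.12) lie above the 4 IVF embryos (-1.18 to 0.60) in the maternal panel.

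The filter on dim probes shapes what could be seen. Of the 35 tested members, 31 were well above background on at least 3 arrays of every class, Plagl1 and Rasgrf1 in 2 classes, and Magel2 and Zdbf2 in IVF embryos alone, so that the last pair passed through the IVF class alone. Plagl1 fell short in siXist embryos through its outlier spots, which were left out, and its 2 remaining siXist values were both well above background. Another 16 members had a probe that did not pass. They were Usp29 and Zim1 beside Peg3, Atp10a beside Ube3a, Tspan32, Peg10, Calcr, Klf14, Nap1l5, Dlk1, Dio3, Rian, Airn, Slc22a2, Slc22a3, Dcn and Nnat. The best was Dlk1, a Notch-like growth gene, with 6 of 12 arrays well above background, and Zim1, Slc22a3 and Dcn had 0. Airn, the long RNA that silences Igf2r in cis, reached 2 of 12 and Peg10, a retroelement-derived gene of the placenta, 3 of 12. H19, Rtl1, Mirg and Peg13 had no matched probe and were not analysed here. Among the 14 members with more than 1 kept probe, probes shared a direction for 10 in siCont minus IVF, 6 in siXist minus IVF and 7 in siXist minus siCont.

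Of the factors that bind or keep the methyl marks, 19 of 20 listed were tested and 0 were called in siCont against IVF, siXist against IVF or siXist against siCont embryos. In siCont against IVF embryos 5 were higher and 14 lower, with a median of -0.29 beside -0.04 for all features, and at an unadjusted limma p under 0.05 0 were higher and 3 lower, where 6.84% and 6.73% of all features were. In siXist against IVF embryos the counts were also 5 and 14, with a median of -0.43 beside -0.23, and 1 higher and 2 lower at that unadjusted p, beside 5.05% and 8.84%. Between siXist and siCont embryos 9 were higher and 10 lower (median -0.09), and 0 and 2 at the unadjusted p, beside 4.39% and 9.5%. The shares called over all features were 0.415%, 0.578% and 0.0105%. Zfp57 was at -5.10, -3.20, -4.86 and -5.12 in IVF embryos, all 4 well above background, and in 2 of 4 siCont and 1 of 4 siXist arrays it was well above background. Zfp57 thus passed the filter on dim probes through the IVF class alone, and it is among the factors counted lower at the unadjusted p. Its differences as measured were -1.91 (adjusted p = 0.317) and -2.69 (adjusted p = 0.174), and their size is poorly set. Trim28, its partner, differed by -0.18 and -0.38, and Dppa3, which shields marks in the early embryo, by -0.08 and -0.43. Dnmt1, the methyltransferase that copies marks at replication, differed by 0.60 and 0.51, and Zfp445, a second protector, by -2.15 and 0.57 (adjusted p between 0.551 and 0.943 for these 4 genes). Both Zfp445 differences had a standard error of 1.47. Zfp445 was at -7.6 in siCont embryo 3, against -1.99 to -0.94 in the other siCont embryos, and 3 of 4 siCont arrays were well above background. Hells, a chromatin remodeller needed for DNA methylation, and Dnmt3a, a methyltransferase that sets new marks, were picked after their values were seen. Hells was at 3.76, 4.64, 4.26 and 4.65 in IVF, 3.34, 3.87, 3.62 and 3.30 in siCont and 3.71, 3.09, 2.63 and 2.88 in siXist embryos, the last all under IVF. Its differences were -0.79 and -1.25 (adjusted p = 0.314 and 0.134), and those of Dnmt3a 0.59 and 1.8 (adjusted p = 0.689 and 0.222).

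Markers of the donor, of other cells and of the stage were read on the same arrays, with the shares of all features as above: 0.415% called in siCont and 0.578% in siXist against IVF embryos, and 6.84% higher and 6.73% lower, or 5.05% and 8.84%, at an unadjusted limma p under 0.05. Of 15 Sertoli cell genes 12 were tested and 0 called against IVF by limma. At the unadjusted p 1 was higher and 0 lower in siCont, and 1 and 1 in siXist embryos. Their median level ran from -3.40 to -2.25 in IVF, -3.48 to -1.02 in siCont and -4.96 to -2.38 in siXist embryos, which overlap. The list imprinted through histone H3K27 methylation in place of DNA methylation held 11 symbols, of which Phf17 and Jade1 name the same gene. Of the list 10 were tested and 1, Xist, was called, higher in siCont than in IVF embryos (adjusted p = 0.0016). That IVF mean joins female embryos at 5.17 and 5.24 with male embryos at -4.92 and -7.04. The siCont embryos, all male, overlapped the female IVF embryos and differed by 10.95 from the male ones. In this list 1, again Xist, was higher and 0 lower at the unadjusted p in siCont, and 2 and 0 in siXist embryos.

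Of 10 cumulus cell genes 5 were tested and 0 called by limma against IVF or between the clone classes, and their median ran from -4.77 to -2.41 in IVF, -3.74 to -3.06 in siCont and -4.33 to -1.87 in siXist embryos. At the unadjusted p 1 was higher and 0 lower in siCont and 0 and 0 in siXist against IVF embryos, and 0 higher and 2 lower in siXist against siCont embryos, beside 4.39% and 9.5%. Ptx3, a matrix protein of the cumulus, was well above background in 1 of 4 IVF, 4 of 4 siCont and 0 of 4 siXist embryos, at -3.46, -5.39, -5.37 and -3.74 in siCont embryos. The tested cumulus genes did not share a direction between the clone classes. Their siXist minus siCont differences were -4.26 (Ptx3), -0.69 (Foxl2), -0.15 (Amhr2), 0.12 (Cyp19a1) and 2.47 (Kitl). Of the 35 imprinted members, 16 were higher and 19 lower in siXist than in siCont embryos, where 39.8% of all features were higher. The lower ones include Mest, Plagl1, Meg3 and Rasgrf1, without a call. The part of cumulus RNA in the members' values was not tested.

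Of 15 genes of the morula and its first lineages 14 were tested, and their median level ran from 4.80 to 5.03 in IVF, 4.53 to 5.05 in siCont and 4.71 to 5.05 in siXist embryos. In siCont embryos 11 of 14 were lower than in IVF (median difference -0.73), 1 higher and 6 lower at the unadjusted p, and 5 did not overlap, beside 10.3% of all features. In siXist embryos 10 of 14 were lower (median -0.43), 0 higher and 2 lower at the unadjusted p, and 5 did not overlap, beside 13.1%. Eomes, a regulator of the trophoblast, differed as measured by -5.97 in siXist embryos (adjusted p = 0.0318). In siCont embryos it differed by -5.23 (adjusted p = 0.06). Cdx2, which sets the outer lineage, was at 4.37, 4.90, 5.13 and 4.48 in IVF, 3.44, -2.93, -7.87 and 3.18 in siCont and 3.83, 3.04, 1.34 and 3.20 in siXist embryos, every clone under every IVF embryo (adjusted p = 0.291 and 0.712). Eomes and Sox2, a factor of the inner cells, were well above background in all 4 IVF embryos and in 1 of 4 embryos of each clone class (Sox2 adjusted p = 0.314 and 0.199). Both thus passed the filter on dim probes through the IVF class alone, and the size of their differences is poorly set. Both are among the genes counted lower at the unadjusted p. Eomes is also among the genes that did not overlap in either clone class, and Sox2 among those that did not in siXist embryos. The part of stage or lineage in the values of the imprinted members was not tested.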

How the data were processed

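Single-colour Agilent arrays of 12 single morulae were analysed from the deposited scanner files, whose values are spot intensities written by Agilent Feature Extraction 10.5.1.1, already background-subtracted, per the file headers. The authors' deposited table holds log2 values of the same arrays. It differed from the values used here by a constant per array, from -2.01 to 0.89, and how those constants were chosen is not given in the sources used here.

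Processed intensities were divided by the 75th percentile of the array and taken to log2. Outlier spots were left out, which removed 4 member values. Of 41174 probes, 24840 were kept, being well above background on at least 3 of 4 arrays of a class, and the brightest kept probe stood for a gene. Accessions named 26888 probes through RefSeq. The 19038 features were fitted with limma 3.58.1 in R 4.3.3 as 4 group means (female IVF, male IVF, siCont, siXist; 8 residual degrees of freedom), IVF weighting both sexes equally, with Benjamini-Hochberg adjustment. Promoters came from RefSeq (GRCm38.p6) through python 3.11.15 and pandas 2.3.3, and plots from matplotlib 3.10.9. On simulated data for siCont minus IVF with 18392 features, 0 of 67 genes changed by 1 log2 unit, 12 of 67 changed by 2 and 38 of 66 changed by 4 were called, so a miss says little at 4 arrays a class.

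Values per embryo are given for called members, the 5 smallest unadjusted p on each side of each class comparison, the 6 brightest members and the genes that define clusters; a few neighbours were named beside them. Members and lists were chosen with earlier results of these data known. Alternatives were another background correction, scaling, filter, probe rule, variance model, weighting and set of samples.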

Additional observations from a re-analysis of the deposited data

Results flagged for a closer look

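In 102 sets of 4 embryos, 1 for each tested member and class with all values, the highest or lowest embryo stood apart from the other three in 6, where chance gives about 1 in 20. Magel2 in siCont embryo 1 was at -2.59, with the others at -6.17 to -5.58. Inpp5f in siXist embryo 2 was at 3.09, with the others at 2.78 to 2.82. Ascl2 in siXist embryo 3 was at -5.73, with the others at -4.47 to -4.27. Sgce in siXist embryo 3 was at 1.76, with the others at 4.31 to 4.67. Ppp1r9a in siCont embryo 3 was at -7.43, with the others at 1.03 to 2.46. Asb4 in siXist embryo 2 was at -8.73, with the others at 1.03 to 2.41. The cause of these values was not tested.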

How the results depend on the processing

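Of 32 gene comparisons, 31 kept their direction under every alternative. Kcnq1 in siXist minus siCont turned to 0.37 in the authors' table, whose constant per array shifted the median of all features from -0.21 to 0.93. Of 29 that were not called, 27 passed under no alternative; Impact in siCont minus IVF passed with array weights (adjusted p = 0.0485) and with a robust trend (0.05), and Cd81 in siXist minus IVF in 3 settings, with an adjusted p down to 0.029. Cd81 over all clones passed in 8 of 24 alternatives. The cause of these moves was not tested.

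Counts over imprinted genes and all features moved as follows. In siCont minus IVF imprinted calls were 1 with array weights or a robust trend, and all calls, 79 as reported, were 45 with a stricter filter, 12 with the replicate block and 18 against male IVF embryos alone. In siXist minus IVF imprinted calls were 2 with array weights and 0 in the authors' table, with 1 mean per class, with the block or against male IVF embryos alone. All calls there, 110 as reported, were 42 in the authors' table, 51 with the stricter filter, 248 with array weights, 13 with the block and 21 against male embryos alone. In siXist minus siCont all calls, 2 as reported, were 0 with normexp or the block, 4 with quantile scaling or a floor, 19 in the authors' table, 5 with 1 mean per class and 12 with the classes compared alone. Over all clones imprinted calls were 1 with normexp, quantile scaling, no filter or the stricter filter, and 0 in the authors' table or with the block. All calls there, 173 as reported, were 98 in the authors' table, 107 with the stricter filter, 345 with array weights and 47 with the block. Between female and male IVF embryos all calls, 3 as reported, were 5 with normexp, 23 with no filter, 8 with array weights or a floor and 0 with these embryos alone.

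Medians of the paternal and maternal lists in the authors' table were -0.65 and -0.80 in siCont minus IVF and 1.04 and 1.11 in siXist minus siCont, and the paternal one was -0.62 in female minus male. Leaving out 1 array gave 33 to 106 calls in siCont minus IVF, 34 to 127 in siXist minus IVF, 8 to 56 in siXist minus siCont, 56 to 177 over all clones and 3 to 7 between the sexes. Imprinted calls ran from 0 to 2 in siXist minus IVF and from 0 to 2 over all clones, and the paternal median in siCont minus IVF from -0.19 (without siCont embryo 1) to 0.62. Replicate numbers do not pair the embryos: same-numbered embryos correlated at -0.15 to 0.06 in their deviations, and others at -0.16 to 0.16. Only the setting with outlier spots kept was chosen after seeing the data. With 4 arrays a class, changes of a few-fold could be missed, and signals near background carry little precision.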
